A study of Rattus norvegicus with 8 samples.

Results

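The 40 genes described here encode proteins of mitosis and the mitotic spindle, and they were taken by symbol from the 30562 genes of a rat liver count table, where each symbol had 1 row. RNA was sequenced from the livers of 8 rats, 2 in each of 4 groups, and the labels call all of them male Wistar rats that weighed 160 g when treatment began. HCB rats received hexachlorobenzene, a persistent chlorinated fungicide that is toxic to the liver, by gavage over 30 days, with 3 doses of 100 mg/kg each week. Atorvastatin plus HCB rats received the same gavage and drank atorvastatin, a statin that blocks cholesterol synthesis, at a daily 5 mg/kg as the labels put it. Atorvastatin rats received the statin alone, and Control rats the vehicle alone. The same labels also give a water recipe of 5 mg per rat and day, which is a different dose at that weight. All rats were killed on day 37, and the 8 livers come from 20 rats assigned 5 to a group. The age of the rats is not given in the sources used here. The design asks how HCB changes gene expression in the liver and whether atorvastatin alters that.

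As background, a cell enters mitosis when CDK1, bound to cyclin B, is activated, and it leaves mitosis when the anaphase-promoting complex (APC/C) with its activator CDC20 marks cyclin B and securin for destruction. Until each chromosome is attached to the spindle through its kinetochore, the spindle checkpoint holds that complex back. Most of these genes are transcribed mainly late in the cycle of dividing cells. They are under a repressor complex called DREAM and, sharing its MuvB core, the activators B-MYB and FOXM1. That control acts through a promoter element called CHR (cell cycle genes homology region) and through CCAAT boxes, which bind NF-Y. In adult liver few hepatocytes divide, whereas the fetal and newborn liver holds dividing hepatocytes and blood precursors.

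Promoters of 4 members are printed here because they show how these elements are arranged in genes that moved together. The sequences are from RefSeq on the GRCr8 build, run 5′ to 3′ on the strand of the gene from 250 bases before the annotated start to 30 bases after it, and have CHR and CCAAT matches on either strand in capitals. Cdk1 is at chr20:19265043-19265322 (plus strand), Plk1 at chr1:186147408-186147687 (plus strand), Cdc20 at chr5:137255770-137256049 (minus strand) and Kif11 at chr1:244536617-244536896 (plus strand).
Cdk1: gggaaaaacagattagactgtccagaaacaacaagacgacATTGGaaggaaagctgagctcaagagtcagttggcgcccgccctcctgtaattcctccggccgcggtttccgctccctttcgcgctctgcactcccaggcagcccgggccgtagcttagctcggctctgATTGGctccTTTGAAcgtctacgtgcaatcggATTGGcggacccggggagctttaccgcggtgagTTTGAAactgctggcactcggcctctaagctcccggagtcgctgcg
Plk1: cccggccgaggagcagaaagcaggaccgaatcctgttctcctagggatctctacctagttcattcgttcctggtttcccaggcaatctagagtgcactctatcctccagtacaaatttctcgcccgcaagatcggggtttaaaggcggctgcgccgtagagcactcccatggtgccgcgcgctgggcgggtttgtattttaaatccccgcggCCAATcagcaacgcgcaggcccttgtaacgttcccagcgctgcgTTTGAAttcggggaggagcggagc
Cdc20: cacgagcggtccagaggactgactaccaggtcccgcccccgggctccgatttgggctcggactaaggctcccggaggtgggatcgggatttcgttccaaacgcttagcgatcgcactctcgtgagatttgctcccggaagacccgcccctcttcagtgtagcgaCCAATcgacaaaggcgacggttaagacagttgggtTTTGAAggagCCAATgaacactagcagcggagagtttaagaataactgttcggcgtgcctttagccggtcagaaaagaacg
Kif11: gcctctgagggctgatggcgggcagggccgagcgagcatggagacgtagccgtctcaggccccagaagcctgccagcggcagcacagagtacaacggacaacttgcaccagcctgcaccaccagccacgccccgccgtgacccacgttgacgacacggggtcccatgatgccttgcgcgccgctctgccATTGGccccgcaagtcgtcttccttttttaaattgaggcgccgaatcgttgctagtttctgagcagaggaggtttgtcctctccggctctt
The Cdk1 sequence holds 2 CHR matches and 3 CCAAT matches, the Cdc20 sequence has a CHR match between a pair of CCAAT matches, and the Plk1 sequence has 1 of each. The Kif11 sequence has a CCAAT match and no CHR match in this window.

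Motifs were searched on both strands of 300 bases. The letters for CHR were TTTGAA or else TTCGAA, and those of the CCAAT box its name. For forkhead sites, such as FOXM1 binds, they were TAAACA. For E2F they were TTTCGCG, with TTTGGCG or instead TTCCCGC also accepted. Of the 40 members, 34 are in the RefSeq promoter table; the others are Ube2c, Tpx2, Incenp, Aurkb, Ccna2 and Foxm1. A CHR match was present in 27 of the 34 promoters (79.4%), against 19.7% of the 33469 promoters in the table. A CCAAT match was present in 25 (73.5%), against 37.5% of all promoters. Both were present in 21 members (61.8%), against 7.95% of all promoters, and the matches of the 2 motifs overlapped in Mki67 and Cdca8. Aurka, Bub1 and Kif2c held neither, as did 50.7% of all promoters. The forkhead letters were in 7 members (20.6%) and 13.7% of all promoters, and the E2F letters in 3 members (8.82%) and 6.19% of all promoters. A match describes the letters in the window and is not evidence of a bound site.

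**Figure D1:**
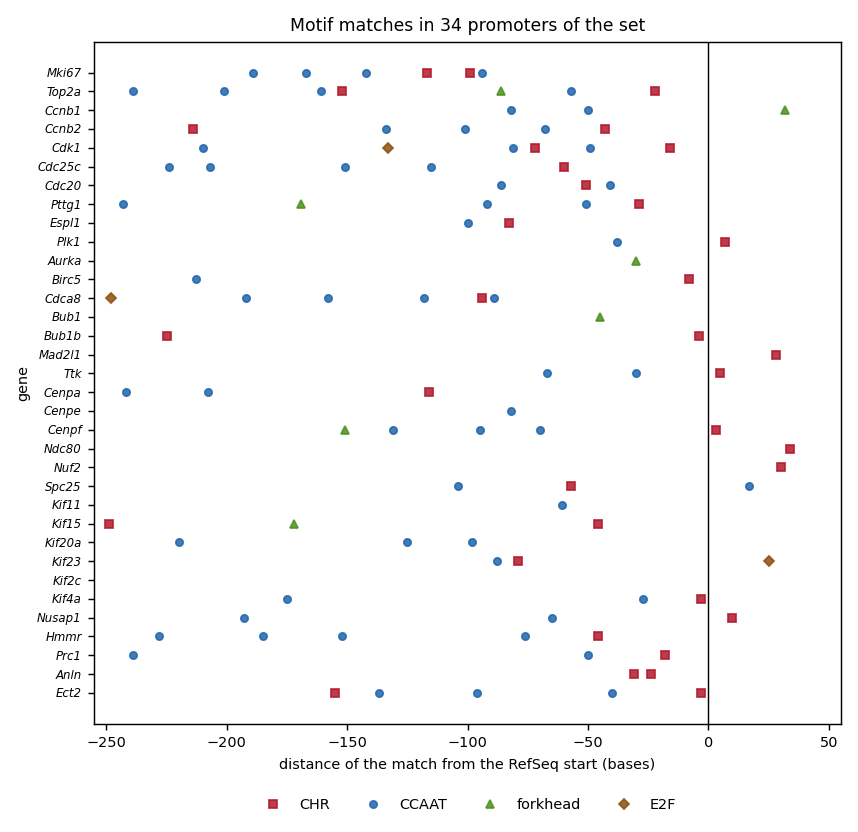
Positions of motif matches in the 34 promoters, by gene (rows) and by distance from the RefSeq start in bases (horizontal axis, 0 is the start); each symbol is 1 match. Within the 100 bases before the start, 55.9% of the members hold a CHR match (red squares) and 61.8% a CCAAT match (blue circles), against 6.39% and 17.5% of all promoters.

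Before the results, the libraries themselves need describing, because they go against their labels. A list of 4 Y-linked genes summed to 217 and 143 CPM in the HCB libraries and 147 and 135 CPM in the Atorvastatin plus HCB libraries, against 1.39 and 1.37 CPM in the Atorvastatin libraries and 1.904 and 0.8999 CPM in the Control libraries. CPM are counts scaled to 1e6 reads of normalised library size. A list of 5 fetal hepatocyte genes, among them Afp and Igf2, summed to 155 to 333 CPM in HCB and 148 to 172 CPM in Atorvastatin plus HCB, against 37451 to 47711 CPM in Atorvastatin and 37482 to 51247 CPM in Control. The libraries labelled Atorvastatin and Control therefore nearly lack the Y-linked RNA of the male sex on their labels and carry high fetal liver RNA. Assigned reads ranged from 29.4 M to 52.0 M per library (M, reads in units of 1e6). The first principal component, 72.1% of the variance, separated these 4 libraries from the other 4. Albumin RNA (Alb) was high in every library, from 45740 CPM in Atorvastatin replicate 1 to 124965 CPM in Atorvastatin plus HCB replicate 1. Other genes of the same list of 9 adult hepatocyte genes were less even. Cyp2c11 was at 3441 and 3120 CPM in HCB and 4101 and 2641 CPM in Atorvastatin plus HCB. It was at 10.5 and 8.93 CPM in Atorvastatin and 4.85 and 4.74 CPM in Control. Apoa1 differed in the other direction, and counts for the list are given below. Every difference by HCB given here separates the same libraries, so HCB cannot be told apart from whatever else sets those livers apart. Group names below are those on the labels.

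The set was lower in the 4 libraries with HCB in their label. Summed over the 40 members, the level was 59.8 and 85.02 CPM in HCB and 70.8 and 111.3 CPM in Atorvastatin plus HCB, against 844.2 and 781.3 CPM in Atorvastatin and 467.8 and 1100.6 CPM in Control. The lowest library of the Atorvastatin and Control groups was above the highest library of the other 2 groups. In these whole-liver samples, fewer dividing cells and less of this RNA in each cell cannot be told apart.

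**Figure D2:**
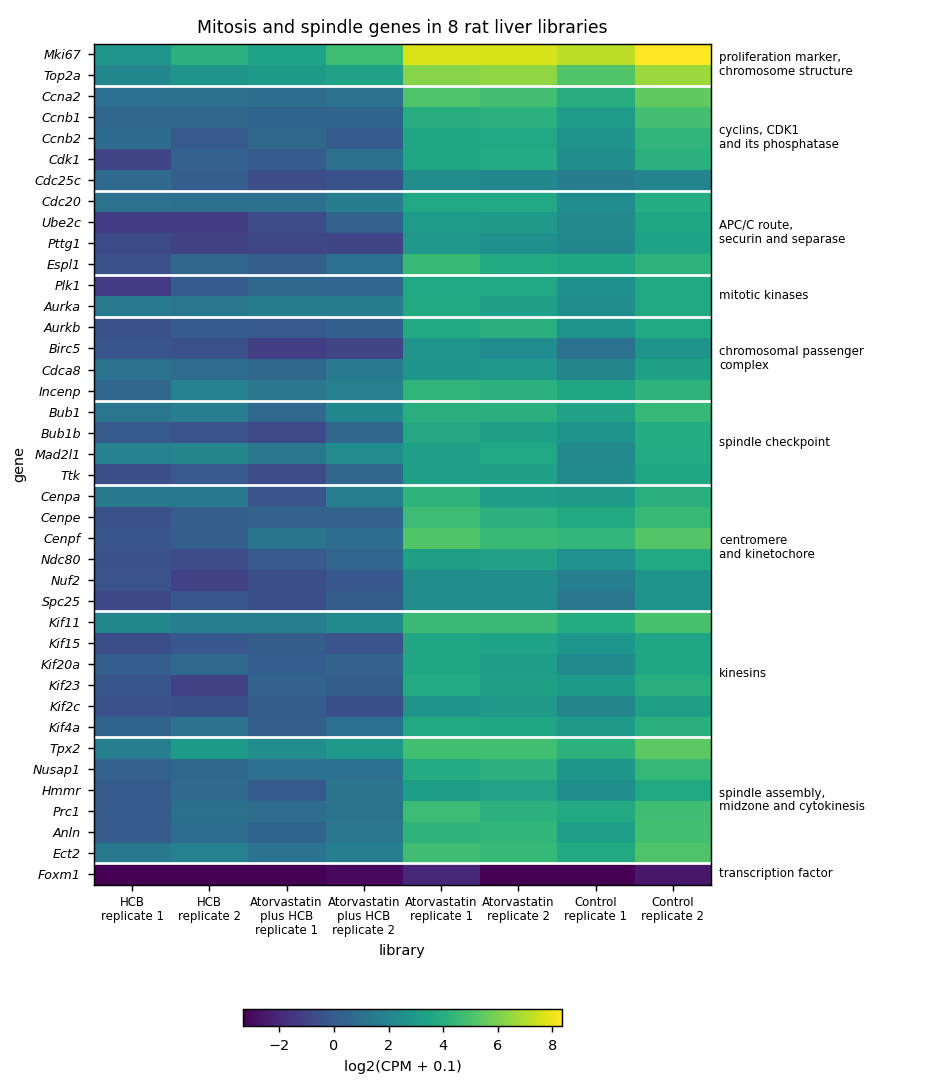
Level of each of the 40 members (rows, grouped by role) in each of the 8 libraries (columns), as the log2 of CPM plus 0.1 (colour scale). The 4 columns on the left, with HCB in their label, are darker than the 4 on the right in every row but 2. These are Foxm1, near 0 in all columns, and Mad2l1, where Atorvastatin plus HCB replicate 2 (4.86 CPM) is above Control replicate 1 (4.42 CPM); Control replicate 1 is darker than Control replicate 2 in the members tested.

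In HCB versus Control, 38 of the 39 members that could be tested were lower and 0 higher, at a threshold of 0.05 on the adjusted p (edgeR's quasi-likelihood test, Benjamini-Hochberg adjustment over 16591 genes), where 13.9% of all genes tested were lower and 13% higher. Their median log2 fold change was -3.46, which is 10.99-fold lower, against -0.09 over all genes tested, and 4.18% of all genes were below that median. In Atorvastatin plus HCB versus Atorvastatin, 39 of 39 were lower and 0 higher, where 15% of all genes were lower and 12.6% higher. The median there was -3.20 (9.19-fold lower), against -0.11 over all genes. Libraries of the 2 groups did not overlap in any of the 39 members in either comparison, where 35% and 38.7% of all genes were lower without overlap. The remaining member, Foxm1, did not pass the filter on low counts and is described below.

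**Figure D3:**
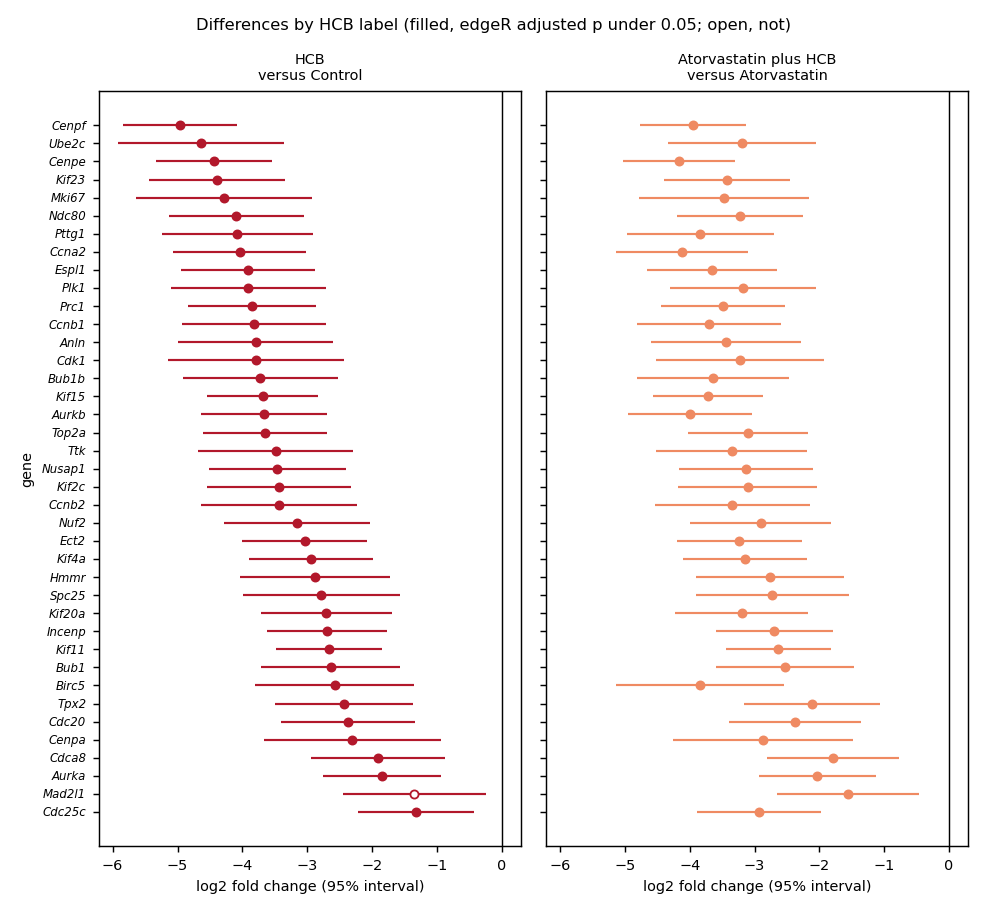
Log2 fold change (points) and 95% interval (lines) of the 39 members tested, in HCB versus Control (left) and Atorvastatin plus HCB versus Atorvastatin (right), from 1 edgeR model with 2 libraries a group. Filled points passed an adjusted p of 0.05; Mad2l1 in HCB versus Control is the open point, and every estimate is below 0.

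The 2 comparisons use different libraries, so they can be set side by side. Across the 39 members the log2 fold changes had a Pearson r of 0.776 and a Spearman rho of 0.749, against a Pearson r of 0.856 across all genes tested; genes are not independent replicates, and all come from the same 8 libraries. In 28 members the 2 estimates were within 0.5 of each other, and the largest gap was 1.61, for Cdc25c. A total of 38 members passed the test in both, where 13.9% of all genes were lower in the first comparison and 15% in the second. How many of all genes passed in both, or had estimates within 0.5, was not counted.

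Mki67 encodes the proliferation antigen Ki-67, and it was lower in both comparisons. It stood at 6.62 and 17.2 CPM in HCB and 10.9 and 26.1 CPM in Atorvastatin plus HCB, against 211 and 200.1 CPM in Atorvastatin and 141 and 324 CPM in Control. Its log2 fold change was -4.29 ± 0.61 in HCB versus Control (SE, adjusted p = 9.3e-04 by edgeR) and -3.48 ± 0.59 in Atorvastatin plus HCB versus Atorvastatin (adjusted p = 0.00243). The gene is at chromosome 1, 190496319 to 190522762, on the mRatBN7.2 build of the count table. Top2a, the topoisomerase that untangles sister chromatids, was at 4.18 and 6.38 CPM in HCB and 8.12 and 10.3 CPM in Atorvastatin plus HCB, against 74.3 and 84.4 CPM in Atorvastatin and 36.5 and 96.5 CPM in Control. Each of these values was lower in every HCB-labelled library than in any library of the other 2 groups.

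Among the cyclins and CDK1, all 5 members were lower in both comparisons. Cdk1, the kinase that drives entry into mitosis, was at 0.443 and 1.17 CPM in HCB and 0.952 and 1.87 CPM in Atorvastatin plus HCB, against 11.95 and 14.6 CPM in Atorvastatin and 5.51 and 17.1 CPM in Control. Its log2 fold change was -3.78 ± 0.62 in HCB versus Control (SE, adjusted p = 0.00148 by edgeR). Ccnb1, which encodes the cyclin B partner of CDK1, was nearly even within HCB, at 1.33 and 1.34 CPM, and within Atorvastatin plus HCB, at 1.25 and 1.26 CPM. Against these stood 15.3 and 17.5 CPM in Atorvastatin and a wide 8.56 and 29.1 CPM in Control. Ccna2, the cyclin A gene used in S phase and early mitosis, was at 1.805 and 1.87 CPM in HCB and 1.73 and 1.96 CPM in Atorvastatin plus HCB, against 35.3 and 29.2 CPM in Atorvastatin and 15.2 and 45.3 CPM in Control. Exons of Ccna2 share 20.1% of their bases with Exosc9, so some of its reads cannot be assigned. Ccnb2, another cyclin B gene, had log2 fold changes of -3.43 and -3.34 in the same 2 comparisons.

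Cdc25c, the phosphatase that activates CDK1, was the least changed of this group. It was at 1.58 and 1.07 CPM in HCB and 0.577 and 0.675 CPM in Atorvastatin plus HCB, against 5.34 and 4.24 CPM in Atorvastatin and 2.87 and 3.74 CPM in Control. The log2 fold change was -1.32 ± 0.41 in HCB versus Control (adjusted p = 0.0348 by edgeR) and -2.93 ± 0.43 in Atorvastatin plus HCB versus Atorvastatin (adjusted p = 8.1e-04). The HCB versus Control call was lost in 8 of 19 other settings, among them without Control replicate 2 (adjusted p = 0.165 by edgeR).

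On the APC/C route, all 4 members were lower in both comparisons. Cdc20, the activator of the complex, was at 2.03 and 1.87 CPM in HCB and 1.85 and 2.88 CPM in Atorvastatin plus HCB, against 12.4 and 12.2 CPM in Atorvastatin and 5.03 and 15.04 CPM in Control. Ube2c, the ubiquitin-conjugating enzyme that works with the complex, was at 0.317 and 0.3204 CPM in HCB and 0.551 and 1.19 CPM in Atorvastatin plus HCB, against 8.26 and 7.83 CPM in Atorvastatin and 4.37 and 11.6 CPM in Control. Its log2 fold change of -4.64 ± 0.58 in HCB versus Control was exceeded in size by that of Cenpf alone (SE, adjusted p = 3.0e-04 by edgeR). The HCB values of Ube2c rest on 10 and 12 reads. Pttg1, or securin, which holds separase inactive, was at 0.507 and 0.374 CPM in HCB and 0.451 and 0.4499 CPM in Atorvastatin plus HCB, against 7.38 and 5.61 CPM in Atorvastatin and 4.09 and 10.8 CPM in Control. Espl1, which encodes separase, the protease that cuts cohesin at anaphase, was at 0.633 and 1.34 CPM in HCB and 1.05 and 1.84 CPM in Atorvastatin plus HCB, against 23.04 and 13.9 CPM in Atorvastatin and 11.5 and 18.6 CPM in Control. The inhibitor and its enzyme thus moved the same way, by -4.08 and -3.92 on the log2 scale in HCB versus Control.

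The mitotic kinases Plk1 and Aurka were both lower in both comparisons. Plk1, which acts at centrosomes and kinetochores, was at 0.317 and 0.961 CPM in HCB and 1.45 and 1.305 CPM in Atorvastatin plus HCB, against 12.8 and 12.1 CPM in Atorvastatin and 5.61 and 13.9 CPM in Control. Aurka, the centrosome kinase, was at 2.69 and 2.48 CPM in HCB and 2.88 and 2.97 CPM in Atorvastatin plus HCB, against 13.96 and 9.99 CPM in Atorvastatin and 5.28 and 13.3 CPM in Control. In HCB versus Control the log2 fold changes were -3.91 ± 0.55 for Plk1 (adjusted p = 5.6e-04 by edgeR) and -1.84 ± 0.41 for Aurka (adjusted p = 0.00806). The difference between the 2 genes was not tested.

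The chromosomal passenger complex, which corrects faulty attachments and later guides cytokinesis, has 4 members here, and all were lower in both comparisons. Its kinase Aurkb was at 0.633 and 0.961 CPM in HCB and 0.852 and 1.08 CPM in Atorvastatin plus HCB, against 13.8 and 17.1 CPM in Atorvastatin and 6.35 and 14.1 CPM in Control. Birc5, or survivin, which brings the complex to chromatin, was at 0.7599 and 0.641 CPM in HCB and 0.351 and 0.4499 CPM in Atorvastatin plus HCB, against 6.63 and 5.005 CPM in Atorvastatin and 1.96 and 6.42 CPM in Control. Cdca8, which encodes borealin, was at 1.96 and 1.71 CPM in HCB and 1.404 and 2.59 CPM in Atorvastatin plus HCB, against 6.51 and 7.27 CPM in Atorvastatin and 3.88 and 9.85 CPM in Control. It changed least of the complex, with log2 fold changes of -1.90 against Control and -1.78 against Atorvastatin (adjusted p = 0.0129 and 0.0164 by edgeR). Incenp, the scaffold of the complex, was at 1.36 and 3.36 CPM in HCB and 2.41 and 3.31 CPM in Atorvastatin plus HCB, against 19.6 and 17.5 CPM in Atorvastatin and 11.9 and 18.9 CPM in Control. It changed by almost the same amount in the 2 comparisons, -2.69 and -2.69 on the log2 scale.

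Of the 4 spindle checkpoint members, 3 were lower in HCB versus Control and all 4 in Atorvastatin plus HCB versus Atorvastatin. Mad2l1, whose protein MAD2 binds and blocks CDC20, was the member that missed the threshold, with a log2 fold change of -1.35 ± 0.50 (SE, 95% interval -2.44 to -0.25, adjusted p = 0.0678 by edgeR). It was at 3.51 and 3.85 CPM in HCB and 2.48 and 4.86 CPM in Atorvastatin plus HCB, against 9.56 and 12.2 CPM in Atorvastatin and 4.42 and 14.3 CPM in Control. Control replicate 1 lay close to the HCB livers and Control replicate 2 well above them. Over 19 other settings the log2 fold change of Mad2l1 in HCB versus Control ran from -1.96 to -0.23. Its log2 fold change in Atorvastatin plus HCB versus Atorvastatin was -1.56 ± 0.50 (adjusted p = 0.0388 by edgeR). That call was lost in 5 of 19 other settings, each without 1 library, and its highest adjusted p was 0.25, without Atorvastatin plus HCB replicate 1 (edgeR). Bub1, a checkpoint kinase at kinetochores, was at 2.28 and 3.04 CPM in HCB and 1.504 and 4.23 CPM in Atorvastatin plus HCB, against 16.6 and 16.8 CPM in Atorvastatin and 10.5 and 22.7 CPM in Control. Bub1b, whose product BUBR1 also restrains CDC20, and Ttk, the kinase MPS1 that starts checkpoint signalling, had log2 fold changes of -3.72 and -3.49 in HCB versus Control.

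The centromere and kinetochore members held the largest change of the set. Cenpf, a large outer kinetochore protein, was at 0.7599 and 1.07 CPM in HCB and 2.18 and 1.75 CPM in Atorvastatin plus HCB, against 36.6 and 24.05 CPM in Atorvastatin and 20.8 and 36.7 CPM in Control. Its log2 fold change in HCB versus Control was -4.96 ± 0.40, or 31.2-fold lower (SE, adjusted p = 1.6e-05 by edgeR). Cenpe, the kinesin that carries chromosomes along the spindle, had the largest change in Atorvastatin plus HCB versus Atorvastatin, with a log2 fold change of -4.17 ± 0.39 (adjusted p = 5.1e-05 by edgeR). It was at 0.633 and 1.07 CPM in HCB and 1.203 and 1.19 CPM in Atorvastatin plus HCB, against 25.8 and 17.3 CPM in Atorvastatin and 13.6 and 23.6 CPM in Control.

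Ndc80, Nuf2 and Spc25 encode 3 subunits of the complex that grips microtubules. Ndc80 was at 0.633 and 0.534 CPM in HCB and 0.852 and 1.305 CPM in Atorvastatin plus HCB, against 9.77 and 10.4 CPM in Atorvastatin and 5.94 and 14.02 CPM in Control. In HCB versus Control the 3 subunits had log2 fold changes of -4.09 ± 0.47 (Ndc80), -3.16 ± 0.51 (Nuf2) and -2.78 ± 0.55 (Spc25), each with its SE. Cenpa, the histone variant that marks centromeres, was at 2.53 and 2.51 CPM in HCB and 0.752 and 3.08 CPM in Atorvastatin plus HCB, against 18.9 and 9.22 CPM in Atorvastatin and 7.79 and 17.1 CPM in Control. Its libraries were spread in 3 of the 4 groups, and in HCB versus Control its SE of 0.61 on a log2 fold change of -2.30 was among the largest of the set.

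All 6 kinesins were lower in both comparisons. Kif11, the motor that pushes spindle poles apart, had the smallest of their changes in HCB versus Control. It was at 4.18 and 3.098 CPM in HCB and 3.21 and 4.72 CPM in Atorvastatin plus HCB, against 24.4 and 24.9 CPM in Atorvastatin and 15.1 and 30.9 CPM in Control. Kif15, which can share that work, was at 0.602 and 0.801 CPM in HCB and 0.978 and 0.697 CPM in Atorvastatin plus HCB, against 11.4 and 10.6 CPM in Atorvastatin and 6.86 and 11.3 CPM in Control. The log2 fold changes of Kif15 in the 2 comparisons were nearly equal, -3.69 ± 0.39 against Control and -3.72 ± 0.38 against Atorvastatin (SE, adjusted p = 9.7e-05 and 8.3e-05 by edgeR). Kif23, a motor of the central spindle, had log2 fold changes of -4.40 and -3.43 in the 2 comparisons. Kif20a, which is needed for cytokinesis, was at 1.01 and 1.495 CPM in HCB and 1.03 and 1.19 CPM in Atorvastatin plus HCB, against 11.7 and 8.78 CPM in Atorvastatin and 4.62 and 11.8 CPM in Control. Exons of Kif20a share 8.71% of their bases with Cdc23. Kif2c, which takes microtubules apart at centromeres, and Kif4a, which condenses chromosomes and sets midzone length, had log2 fold changes of -3.43 and -2.94 in HCB versus Control.

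The 6 members of spindle assembly, the midzone and cytokinesis were also lower in both comparisons. Tpx2, which activates Aurora A on the spindle, was at 3.04 and 7.98 CPM in HCB and 5.24 and 7.602 CPM in Atorvastatin plus HCB, against 28.1 and 27.6 CPM in Atorvastatin and 17.7 and 41.8 CPM in Control. Prc1, which bundles midzone microtubules, was at 0.887 and 1.896 CPM in HCB and 1.704 and 2.11 CPM in Atorvastatin plus HCB, against 25.2 and 17.6 CPM in Atorvastatin and 13.5 and 26.9 CPM in Control. Anln, or anillin, the scaffold of the cleavage furrow, was at 0.9498 and 1.74 CPM in HCB and 1.25 and 2.36 CPM in Atorvastatin plus HCB, against 19.3 and 20.2 CPM in Atorvastatin and 9.42 and 28.1 CPM in Control. In HCB versus Control, log2 fold changes in this group ran from -3.85 for Prc1 to -2.43 for Tpx2. Between them lay Anln, Nusap1 and Hmmr, which bind microtubules or the cortex, and Ect2, which activates RhoA for the furrow.

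Foxm1, the transcription factor of late cell cycle genes, could not be measured in this table. It had 0 and 0 reads in HCB and 0 and 1 read in Atorvastatin plus HCB, against 6 and 0 reads in Atorvastatin and 0 and 3 reads in Control. No fold is given, since no group exceeded a floor of 6 reads over its libraries. Its exons on chromosome 4 (161638816 to 161650684, mRatBN7.2) cover 4240 bases, of which 36 are not shared with exons of Rhno1, Tex52 or Nrip2. With no strand used in the counting, reads on the other 99.2% could not be assigned to 1 gene, so these low counts do not measure how much Foxm1 RNA was present.

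Per length, the order of levels differed between the livers. In CPM per kilobase of exon, the highest mean levels in HCB were those of Mad2l1 (2.28) and Tpx2 (1.95), with Mki67 in position 4 at 1.204. Mad2l1 and Tpx2 (both 2.27) were also above Mki67 (1.87) in Atorvastatin plus HCB. Mki67 (20.8) and Top2a (13.8) led the set in Atorvastatin, and the same pair (23.5 and 11.5) led it in Control. By the same measure Mad2l1 was ranked 9 in Atorvastatin and 10 in Control. The lowest levels of the 39 were those of Cenpf in HCB (0.09), Cenpe in Atorvastatin plus HCB (0.16), and Nuf2 in both Atorvastatin (1.65) and Control (1.47). Neighbours in these orders were not tested against each other.

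The spread within groups was not the same. Control replicate 2 was above Control replicate 1 in 39 of 39 members, with a median ratio of 2.46, and 1.81% of all genes tested had a ratio that high. The ratio ran from 1.29 for Cdc25c to 3.37 for Ccnb1. Replicate 2 of Atorvastatin plus HCB was higher in 30 of 39 members (median ratio 1.36), in HCB in 25 (median ratio 1.28), and in Atorvastatin in 16 (median ratio 0.95). In Control replicate 1, 27.7% of the reads were in no annotated exon, against 15.3% in Control replicate 2. In Atorvastatin replicate 1 that share was 34.04%, against 19.5% in replicate 2, and the members differed little between them. The part of this share in the Control difference was not tested.

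**Figure D4:**
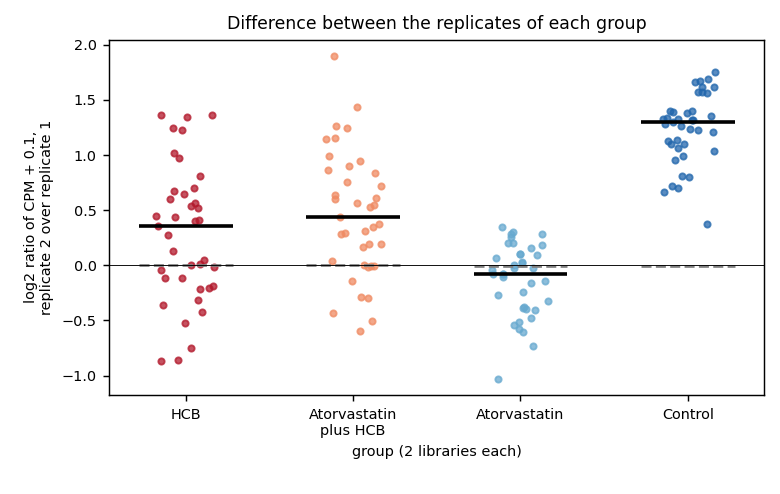
Log2 ratio of replicate 2 over replicate 1 for each of the 39 members tested (points, CPM plus 0.1), by group, with the median of the members (solid bar) and of all 16591 genes (dashed bar). All 39 Control points are above 0, with a median of 1.30, while the median of all genes is near 0 in each group.

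The Control spread carries into the size of the HCB versus Control difference. Its median over the members was -2.58 without Control replicate 2 and -4.01 without Control replicate 1, and 33 and 38 members passed in those fits. Without HCB replicate 1, 31 members passed, and without HCB replicate 2, 34. In each of 19 other settings tried, all 39 estimates in this comparison stayed below 0. Besides Cdc25c, 6 members lost the HCB versus Control call when 1 library was left out. The highest adjusted p without Control replicate 2 was 0.0891 for Aurka, 0.0797 for Birc5 and 0.145 for Cdca8, and without HCB replicate 1 it was 0.0533 for Bub1, 0.143 for Cenpa and 0.0509 for Spc25 (edgeR). Besides Mad2l1, 5 members lost the call in Atorvastatin plus HCB versus Atorvastatin. Without Atorvastatin plus HCB replicate 1 the adjusted p was 0.0502 for Cdc20, 0.147 for Cdca8, 0.0519 for Spc25 and 0.0812 for Tpx2, and without Atorvastatin replicate 1 it was 0.0553 for Cenpa (edgeR). The average difference by HCB over both atorvastatin states was called lower in 39 of 39 members, where 25.3% of all genes were, with a median log2 fold change of -3.38.

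Atorvastatin made no difference that passed the test in any member. Comparing Atorvastatin plus HCB with HCB, 0 of 39 members passed, as did 0% of all genes tested (edgeR). Unadjusted p-values under 0.05 were found for 3 members and 857 genes, and DESeq2 called 49 genes and 0 members. The median log2 fold change was 0.27, against 0.00 over all genes. The members with the smallest p were Cenpf at 1.09 ± 0.38, Cdc25c at -1.07 ± 0.43 and Ube2c at 1.45 ± 0.58 (log2, SE, adjusted p = 0.892 for each by edgeR). The values of the groups did not overlap in 12 members, 9 of them higher with atorvastatin (Cenpf, Ube2c, Kif23, Plk1, Top2a, Ndc80, Cenpe, Nusap1 and Aurka), where 17.9% of all genes were, and 3 lower (Cdc25c, Birc5 and Ccnb1), where 16.9% were. The 95% intervals of 35 members exclude a 4-fold rise and those of 37 a 4-fold fall, whereas 8 and 29 exclude a 2-fold rise and a 2-fold fall.

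In Atorvastatin versus Control, 0 of 39 members passed, as did 0% of all genes (edgeR). Unadjusted p-values under 0.05 were found for 0 members and 181 genes, and DESeq2 called 2 genes and 0 members. The median log2 fold change was 0.13, against 0.01 over all genes, and the range was -0.20 (Ccnb1) to 0.60 (Aurkb). That median was 0.88 without Control replicate 2 and -0.36 without Control replicate 1, so its sign rests on which Control liver is kept. Only Cdc25c did not overlap between the groups, and it was higher in Atorvastatin, where 10.6% of all genes were higher without overlap. The intervals of all 39 members exclude a 4-fold change in either direction, and a 2-fold rise is excluded for 15 members and a 2-fold fall for 32.

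**Figure D5:**
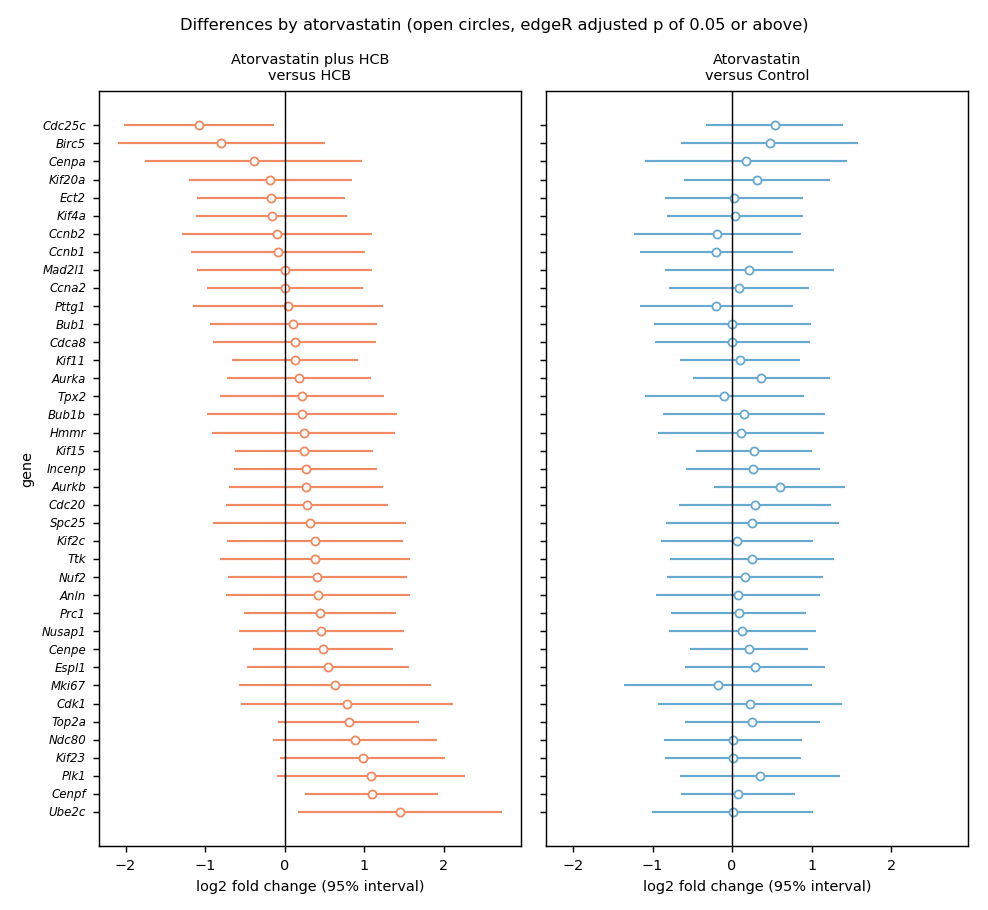
Log2 fold change (points) and 95% interval (lines) of the 39 members in Atorvastatin plus HCB versus HCB (left) and Atorvastatin versus Control (right), from the same edgeR model. No member passed an adjusted p of 0.05, and estimates spread from -1.07 (Cdc25c) to 1.45 (Ube2c) on the left and from -0.20 to 0.60 on the right.

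Averaged over both HCB states, the effect of atorvastatin passed the test in 0 of 39 members and 0% of all genes, with unadjusted p-values under 0.05 for 1 member (Cenpf, log2 0.59) and 601 genes. DESeq2 called 4 genes there and 0 members. The interaction of HCB and atorvastatin asks whether the effect of atorvastatin differs with the HCB label. It compares that effect between the HCB-labelled livers and the others. As a modifier of that effect, HCB cannot be told apart from whatever else sets those livers apart. The interaction also passed in 0 of 39 members and 0% of all genes. Unadjusted p-values under 0.05 were found for 1 member, Cdc25c (-1.61 ± 0.58, log2, SE), and for 391 genes, and DESeq2 called 5 genes and 0 members.

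Lists of related cell cycle genes outside the set are given beside it. Of 33 other spindle and cytokinesis genes tested, 29 were lower in HCB versus Control, with a median log2 fold change of -2.91. In Atorvastatin plus HCB versus Atorvastatin 30 were lower, with a median of -3.01. The shares of all genes tested that were lower were 13.9% and 15%, in the same order. The counts of the lists in this paragraph were not tested against these shares. Spag5, or astrin, which stabilises kinetochore fibres, had a log2 fold change of -5.80 ± 0.59 in HCB versus Control (SE, adjusted p = 7.4e-05 by edgeR). Among 34 other kinetochore and checkpoint genes, 18 and 24 were lower, with medians of -1.65 and -1.90, among them Sgo1, the shugoshin that protects centromeric cohesin (-4.12 and -4.67). Of 14 condensin and cohesin genes 9 were lower in each comparison, and the condensin subunit gene Ncapd2 had the smallest p in both (-2.14 and -2.45). Ncaph, another condensin subunit gene, had the larger log2 fold changes of -3.78 and -3.48.

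Genes of the start of the cycle passed the test in part. Of 31 E2F target and DNA replication genes, 9 were lower in HCB versus Control and 18 were lower in Atorvastatin plus HCB versus Atorvastatin, with medians of -1.16 and -1.76, where 13.9% and 15% of all genes were lower. E2f2, an activator of the E2F family, had the smallest p of the list in HCB versus Control, with a log2 fold change of -2.80 (adjusted p = 0.00302 by edgeR). Tk1, a thymidine kinase, fell by 1.66 on the log2 scale in HCB versus Control (adjusted p = 0.0118 by edgeR). Of 24 of these genes in the promoter table, 79.2% held the E2F letters and 16.7% a CHR match, and of 29 promoters of the spindle and cytokinesis list 69.0% held a CHR match. Among 15 tested genes of APC/C subunits and inhibitors, 1 and 2 were lower, no larger a share than over all genes, with medians of -0.21 and -0.29. Fbxo5, an inhibitor of the complex, was the 1 lower in both (-2.70 and -2.16).

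In a list of 15 DREAM and MuvB genes, regulators of the late cycle, 3 were lower and 1 higher in HCB versus Control, where 13.9% of all genes were lower and 13% higher. In Atorvastatin plus HCB versus Atorvastatin 5 were lower and 3 higher, where 15% of all genes were lower and 12.6% higher. In the average difference by HCB over both atorvastatin states, 8 were lower and 4 higher. There 4198 of the 16591 genes tested were lower and 3530 higher. The list is small, and its counts were not tested against those of all genes. Mybl2, which encodes B-MYB, was lower in both 2-group comparisons (-4.66 ± 0.56 and -4.53 ± 0.54, log2, SE). So were E2f7 and E2f8, which are repressors of E2F targets. Rbbp4 was higher in HCB versus Control (1.08), and Rb1, the retinoblastoma gene, was higher in Atorvastatin plus HCB versus Atorvastatin (1.42 ± 0.29). Of 17 CDK inhibitor and G1 cyclin genes, 6 were lower and 1 higher in HCB versus Control, and 4 lower and 1 higher in Atorvastatin plus HCB versus Atorvastatin. Cdkn1c, which encodes the CDK inhibitor p57, fell with the mitotic genes in both (-3.54 ± 0.38 and -3.35 ± 0.37). For each of these 7 lists, 0 genes passed the edgeR test in either comparison by atorvastatin.

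Among members with a promoter in the table, the median log2 fold change in HCB versus Control was -3.49 for the 27 with a CHR match and -2.70 for the 7 without, and the ranges overlapped (-4.96 to -1.32 and -4.43 to -1.84). In Atorvastatin plus HCB versus Atorvastatin the medians were -3.23 and -3.11. For a CCAAT match, the medians in HCB versus Control were -3.46 for the 25 with it and -3.43 for the 9 without. In Atorvastatin plus HCB versus Atorvastatin the CCAAT medians were -3.23 and -3.11. No test was made of these differences.

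Erythroid and neutrophil granule markers moved with the set. Over all genes tested, 13.9% were lower and 13% higher in HCB versus Control. In Atorvastatin plus HCB versus Atorvastatin, 15% were lower and 12.6% higher. The counts of each marker list given here were not tested against these shares. All 14 tested erythroid genes were lower in both comparisons by HCB, and their sum was 572 to 1307 CPM in HCB and 300.5 to 338 CPM in Atorvastatin plus HCB, against 1967 to 3902 CPM in Atorvastatin and 3246 to 5220 CPM in Control. The erythroid regulator Gfi1b was at 0 reads in all 4 HCB-labelled libraries. Of 9 tested neutrophil granule genes 8 were lower in each comparison, with sums of 1.15 to 3.48 CPM in HCB and 0.602 to 2.00 CPM in Atorvastatin plus HCB, against 131 to 137 CPM in Atorvastatin and 148 to 223 CPM in Control, and Ctsg was at 0 in all 4 HCB-labelled libraries. All 5 fetal hepatocyte genes were lower and all 4 Y-linked genes higher in both comparisons. Of 7 tested B and T lymphocyte genes, 0 passed in either. Of 9 adult hepatocyte genes 5 were higher and 1 lower in each comparison. In HCB versus Control, 3 of 4 tested megakaryocyte genes were lower, and in Atorvastatin plus HCB versus Atorvastatin 1 of the 4 was. Kupffer cell and macrophage genes (7 tested) gave 1 lower and 2 higher in the first comparison and 0 lower and 2 higher in the second. Endothelial genes (6 tested) gave 1 lower and 1 higher in each. Stellate and mesenchymal genes (6 tested) gave 0 lower and 1 higher, then 2 lower and 1 higher, and cholangiocyte genes (4 tested) gave 1 lower and 2 higher, then 1 lower and 0 higher. Within Control, replicate 2 also had the higher erythroid and neutrophil sums, and the higher fetal and adult hepatocyte sums. Within Atorvastatin, the erythroid sum of replicate 1 was 3902 CPM against 1967 CPM in replicate 2. The neutrophil granule sum there was 137 and 131 CPM, and the sum of the mitotic set 844.2 and 781.3 CPM. The part of these cell types in the difference by HCB was not tested.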

How the data were processed

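The count table as deposited gives raw reads for each gene and library, with 0 sample columns left unused, and a length score, the merged exon length in bases that the authors' counter wrote. Per the submitters' processing notes, trimming used fastp 0.23.4 and alignment STAR 2.7.10b. Per the file headers, featureCounts 2.0.6 counted reads in exons of Ensembl release 111 (mRatBN7.2) without a strand option. All assignment classes together hold 508 M reads (M, reads in units of 1e6), 2.04 times the 249 M in the labels, so mates appear to be counted singly. Reads in no annotated exon, 7.46% to 34.04%, are listed apart from the genes and entered no test.

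The test was edgeR's robust quasi-likelihood fit (edgeR 4.0.16 in R 4.3.3) after filterByExpr and TMM scaling. The fit was 1 model of 4 groups with 4 residual degrees of freedom and a common biological coefficient of variation of 0.295. Of 30562 genes, 16591 were tested, and the Benjamini-Hochberg adjustment ran over all of them, with a threshold of 0.05. SE is the size of the log2 fold change over the square root of F. CPM use the normalised library size, replicate ratios add 0.1 CPM, and the floor for a group is 6 reads, or 3 read pairs, which covers counting error only. Replicates are separate rats, per the labels. The steps were also run on simulated counts in which few genes changed, evenly up and down. That run does not cover differences as broad as those by HCB here.

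The members, the 7 pathway lists, the 11 marker lists and the tests were chosen with earlier results of these data known. Any member may be named, with values in every library for 22 members chosen by role and for those with the smallest or largest p or change. From a list, up to 3 genes with the smallest p and up to 3 against its majority could be named. Promoters came from the RefSeq table of GRCr8 and were searched in Python 3.11.15. Alternatives were DESeq2 1.42.0, other normalisations and filters, halved counts, a replicate block, 2 groups alone and left-out libraries. DESeq2 with the call rule of the deposited readme was added after seeing the data. That rule also requires a minimum size of log2 fold change and filters low counts differently. Its counts of members are therefore at a stricter threshold than those of the other settings. For the comparisons by HCB, counts under the alternatives are given without the share of all genes passing in the same fit. Protein sequences were not used here.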

Additional observations from a re-analysis of the deposited data

Results flagged for a closer look

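Cdc25c was the 1 member of 39 whose groups with and without atorvastatin did not overlap under either HCB label, in opposite directions. Both Atorvastatin livers (5.34 and 4.24 CPM) were above both Control livers (2.87 and 3.74 CPM), and both Atorvastatin plus HCB livers (0.577 and 0.675 CPM) were below both HCB livers (1.58 and 1.07 CPM). The interaction was -1.61 ± 0.58 on the log2 scale (SE), with an unadjusted p of 0.0181 and an adjusted p of 1.00 by edgeR over all genes tested. The same pattern of non-overlap in opposite directions was found for 507 of 16591 genes (3.06%). As in every difference by HCB, HCB cannot be told apart here from whatever else sets the HCB-labelled livers apart. With 2 libraries a group, no group was large enough to be searched for a single outlying library.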

How the results depend on the processing

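In HCB versus Control, 31 to 38 members passed with 1 library left out, 38 or 39 under the other planned settings and 35 under the deposited readme's rule. For Atorvastatin plus HCB versus Atorvastatin the counts were 34 to 39, 39 and 37. In the comparisons by atorvastatin and the interaction, 0 passed in any setting. Over the members and 19 settings, 21 calls were lost and 6 gained (all 6 of Mad2l1) in HCB versus Control, and 10 lost and 0 gained in Atorvastatin plus HCB versus Atorvastatin.

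Median log2 fold changes over the members moved with the Control libraries. With 1 library left out they ran from -4.01 to -2.58 for HCB against Control, from -0.36 to 0.88 for Atorvastatin against Control, from -3.64 to -2.82 for the average difference by HCB and from -0.64 to 0.63 for the interaction. Without Control replicate 1 and Atorvastatin replicate 1 together they were -4.01 for HCB against Control, -0.45 for Atorvastatin against Control and 0.64 for the interaction. By library size only, the median in Atorvastatin plus HCB versus Atorvastatin was -3.82, while the median of all genes there moved to -0.73 (-0.53 in HCB versus Control). Single members of Atorvastatin versus Control were followed across settings for Aurkb, Cdc25c, Birc5 and Ccnb1 alone, and of these Birc5 and Ccnb1 changed sign. Ccnb1 was at 0.014 by library size only and ran from -0.83 (without Control replicate 1) to 0.94 (without Control replicate 2), and Birc5 ran from -0.15 to 1.57 in the same fits and was at -0.38 without both libraries. The cause was not tested. Within the 100 bases before the start, 55.9% of the member promoters held a CHR match, against 79.4% in the whole window.

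The labels do not say that replicate numbers pair the rats, and deviations of same-numbered libraries correlated between -0.05 and 0.27. With a replicate block, 38 and 39 members passed in the 2 comparisons by HCB. The table limits Foxm1 to 0 to 6 reads a library, and 2 libraries a group left 95% intervals of about 1 log2 unit to each side.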
